A study of Mus musculus with 36 samples.

Results

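The 9 primary bladder tumours of UPPL mice were ranked by their uroplakin RNA, and the 4 tumours with the highest and the 4 with the lowest values were compared. The 4 tumours of each side were selected on measured values, the mean of log2(value + 1) over Upk1a, Upk1b, Upk2 and Upk3a, so the sides are samples ordered by this mean and not groups of the study. They are 8 of the 36 libraries of the series, and 1 further UPPL tumour fell in the middle and was left out. The series contains mouse bladder tumours, cell lines and tumours grown from those lines, profiled by RNA sequencing. UPPL mice carry Upk3a-CreERT2, in which the promoter of a uroplakin gene drives a recombinase, together with p53f/f and the reporter Rosa26LSL-Luc, and their tumours are labelled Untreated. The 11 primary tumours used beside them, called BBN, came from mice of genotype Ctrl given N-butyl-N-(4-hydroxybutyl)nitrosamine, a bladder carcinogen. The labels give no sex or age, and they do not say that each tumour came from a different mouse, so all p-values measure the spread between these samples.

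Uroplakins are membrane proteins of the urothelium, the lining of the bladder. Upk1a pairs with Upk2 and Upk1b with Upk3a in plaques that cover the umbrella cells, the most differentiated superficial layer, while basal cells beneath them carry keratins such as Krt5. In bladder cancer, uroplakins, Pparg, Gata3 and Foxa1 are used as markers of luminal tumours, and Krt5 and Krt14 as markers of basal tumours.

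The uroplakin mean was 6.49 in tumour UPPL1591, 7.33 in UPPL1595, 8.44 in UPPL1598 and 10.03 in UPPL1597, the 4 lowest. It was 11.13 in the middle tumour, UPPL1544. It was 12.52 in UPPL1541, 12.95 in UPPL1694, 13.08 in UPPL1695 and 13.25 in UPPL1612, the 4 highest. The highest 4 thus lay close together, from 12.52 to 13.25, whereas the lowest 4 were spread from 6.49 to 10.03. UPPL1597 was the tumour of the lowest 4 nearest to the middle tumour, and UPPL1541 that of the highest 4. Upk3a spanned the most, from 0 in UPPL1591 and UPPL1595, 2.6 in UPPL1598 and 47.8 in UPPL1597 to 1783 in UPPL1541 and 8508 in UPPL1612. Leaving Upk3a out of the mean gave the same 4 and 4 tumours. These values chose the tumours, and no test was made on them. BBN tumours lay lower, with uroplakin means from 1.81 to 9.89, so all 11 were below the middle UPPL tumour.

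**Figure D1:**
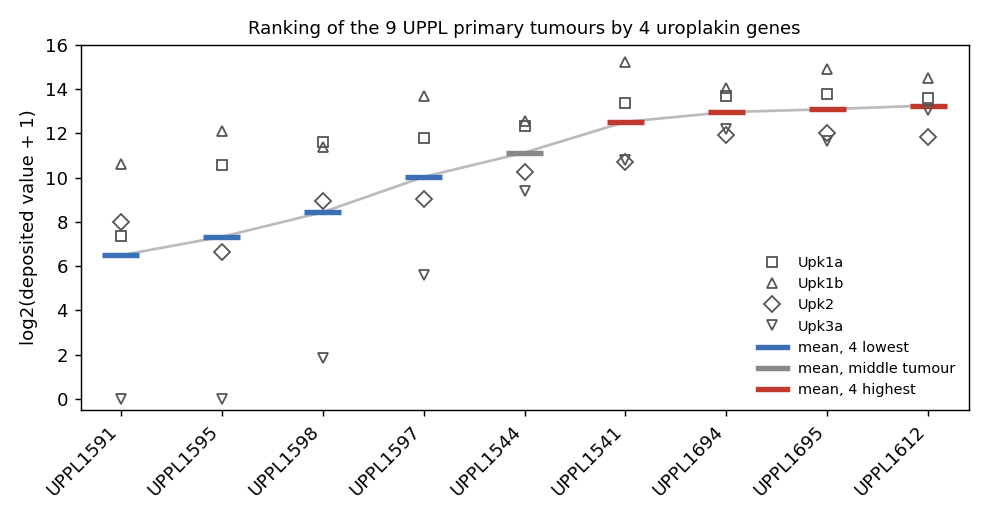
Uroplakin genes in the 9 UPPL primary tumours: the y axis is log2(deposited value + 1), tumours are in rank order on the x axis, symbols are the 4 genes, and coloured bars are the mean used for ranking. The mean climbs from 6.49 to 13.25 with the middle tumour at 11.13, and Upk3a is at 0 in 2 tumours.

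All values below are the deposited signal, gene read estimates scaled per library to a 75th percentile of 1000. They are not divided by gene length, so levels are compared between tumours and not between genes. Reads recovered from the steps in the values numbered 10.6 M to 15.8 M per UPPL tumour. The most frequent low value was 17 reads in UPPL1595 and 14 in UPPL1597 against 2 to 7 in the other 7, and 10024 and 9051 genes were listed at 0 in those tumours against 7834 to 8217, so a 0 there is less informative. A pair of libraries stood apart in other genes. UPPL1694, of the highest 4, had Krt5 at 10615 against 77502 to 324717 in the other 8 tumours, and its median rank correlation with the other 8 over 11007 genes was 0.805, against 0.864 to 0.898 for those 8. UPPL1612, also of the highest 4, had a summed level of 52239 over 9 smooth muscle markers against 1020 to 6680 in the others. The epithelial markers Epcam and Cdh1 were present in every UPPL tumour (1717 to 11013 and 14553 to 29389). Trp53, floxed in these mice, was at 30.4 to 158 in the 9 UPPL tumours, below the 796 to 2266 of the BBN tumours. Xist was at 3223, 4522 and 6977 in UPPL1591, UPPL1595 and UPPL1612 and at 0 to 4.1 in the other 6, while Ddx3y was at 0 to 1.1 in those 3 and at 432 or more in the 6.

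Adh1, Fmo5 and Scamp5 lay higher in uroplakin-high UPPL tumours and rose with the uroplakin mean in BBN tumours. Of these, only Fmo5 was called in both sets. Tmem45a was called lower in uroplakin-high UPPL tumours. The promoters of these 4 genes are shown. Each is 300 bases of the RefSeq sequence (GRCm38.p6), from 250 bases before to 50 after the annotated start, written 5′ to 3′ on the strand of the gene. Capitals mark matches on either strand to any of 6 motifs of factor families at work in urothelium or epithelium.
Adh1, chr3:138277335-138277634, plus strand: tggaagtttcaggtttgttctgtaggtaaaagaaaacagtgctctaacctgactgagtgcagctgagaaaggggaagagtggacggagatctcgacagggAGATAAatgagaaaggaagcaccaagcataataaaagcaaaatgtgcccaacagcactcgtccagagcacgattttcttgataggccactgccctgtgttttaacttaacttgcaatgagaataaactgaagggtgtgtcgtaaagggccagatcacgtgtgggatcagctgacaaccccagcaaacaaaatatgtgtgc
Fmo5, chr3:97628769-97629068, plus strand: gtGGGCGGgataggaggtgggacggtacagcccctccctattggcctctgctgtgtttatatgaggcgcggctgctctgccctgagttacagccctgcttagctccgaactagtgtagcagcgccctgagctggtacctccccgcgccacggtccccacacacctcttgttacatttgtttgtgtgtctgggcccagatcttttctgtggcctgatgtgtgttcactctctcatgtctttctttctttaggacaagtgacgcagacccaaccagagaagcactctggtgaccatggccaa
Scamp5, chr9:57468011-57468310, minus strand: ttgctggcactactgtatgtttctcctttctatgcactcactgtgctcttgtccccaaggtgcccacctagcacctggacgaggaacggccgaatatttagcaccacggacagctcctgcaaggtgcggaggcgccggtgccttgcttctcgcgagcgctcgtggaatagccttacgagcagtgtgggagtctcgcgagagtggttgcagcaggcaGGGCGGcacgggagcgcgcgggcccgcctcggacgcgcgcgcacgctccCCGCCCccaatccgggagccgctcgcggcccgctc
Tmem45a, chr16:56886114-56886413, minus strand: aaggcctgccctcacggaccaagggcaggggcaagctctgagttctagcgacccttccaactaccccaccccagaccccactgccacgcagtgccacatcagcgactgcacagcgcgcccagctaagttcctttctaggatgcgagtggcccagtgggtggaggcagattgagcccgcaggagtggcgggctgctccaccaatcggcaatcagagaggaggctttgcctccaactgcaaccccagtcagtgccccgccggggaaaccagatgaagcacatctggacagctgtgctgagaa
The motifs searched were AGATAA, known for the GATA family, TGTTTAC for the FOXA family, AACCNGTT for grainyhead factors, AGGTCA as the half-site of nuclear receptors, GGGCGG for KLF and SP factors and TGANTCA for AP-1, and none of the printed matches overlapped another motif. The Adh1 promoter held 1 AGATAA, a word present in 11.2 percent of the 32851 mouse promoters searched. Fmo5 held 1 GGGCGG and Scamp5 held 2, a word present in 35.7 percent of promoters. Tmem45a held no match. The shares of all promoters were 3.65 percent for the FOXA word, 2.09 percent for the grainyhead word, 16.3 percent for the half-site and 7.81 percent for the AP-1 word, and none of these was found in the 4 windows. Among called genes whose windows are not printed, Sele held 1 TGANTCA, Mfsd4 (looked up as Mfsd4a) held 1 GGGCGG and Uchl1 held no match. A match is a word in the sequence and not a measured binding site.

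Beside the uroplakins themselves, 5 genes were higher and 1 was lower in the 4 uroplakin-high tumours. Of 12480 genes tested with limma on log2(value + 1), 5 were called higher (0.0401 percent) and 1 lower (0.00801 percent) at a Benjamini-Hochberg adjusted p under 0.05, and 1033 had an unadjusted p under 0.05. A call here says that a gene followed the uroplakin ranking in these 8 tumours. The higher genes were Snx31, Fmo5, Mfsd4, Uchl1 and Sele, and the lower gene was Tmem45a. Sele entered the test only through the values of the highest 4.

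Snx31 encodes a sorting nexin that associates with uroplakins in vesicles of umbrella cells. It was at 74.5 in UPPL1591, 248 in UPPL1595, 260 in UPPL1598 and 559 in UPPL1597, at 866 in the middle tumour, and at 4146 in UPPL1541, 3070 in UPPL1694, 3778 in UPPL1695 and 4001 in UPPL1612. The 4 lowest climbed in the order of their uroplakin mean, whereas the 4 highest formed a level band. The means were 3749 ± 477 in the highest and 285.4 ± 201 in the lowest (SD, n = 4 each), a log2 difference of 4.02 (SE 0.499, limma adjusted p = 0.0448). Leaving out any 1 tumour kept the difference between 3.49 and 4.45.

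Fmo5 encodes a flavin-containing monooxygenase that oxidises xenobiotics. Its values were 2263, 712, 1873 and 1684 in the lowest 4, in rank order from UPPL1591 to UPPL1597, 4505 in the middle tumour, and 8086, 12415, 18036 and 32945 in the highest 4, from UPPL1541 to UPPL1612. Within the highest 4 its order was that of the uroplakin mean. The log2 difference was 3.38 (SE 0.468, limma adjusted p = 0.0455).

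Mfsd4, a membrane protein of the major facilitator family of transporters, was at 175 to 469 in the lowest 4, at 941 in the middle tumour and at 1163 to 1737 in the highest 4. The log2 difference was 2.46 (SE 0.333, limma adjusted p = 0.0448). Its values were the least spread of the 5 higher genes relative to their mean after Snx31, at 1432 ± 242 in the highest 4.

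Uchl1 encodes a deubiquitinating enzyme best known from neurons. It was listed at 0 in UPPL1591 and UPPL1595, at 7.8 in UPPL1598 and 13.5 in UPPL1597, at 45.4 in the middle tumour, and at 346, 1655, 661 and 735 in UPPL1541, UPPL1694, UPPL1695 and UPPL1612. The log2 difference of 7.76 (SE 1.01, limma adjusted p = 0.0448) depends on the value added before the logarithm and was 5.69 with 10 in place of 1.

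Sele encodes E-selectin, an adhesion molecule of activated endothelium that binds leukocytes. It was listed at 0 in all 4 lowest tumours, at 2.1 in the middle tumour, and at 111, 699, 147 and 149 in UPPL1541, UPPL1694, UPPL1695 and UPPL1612 (limma adjusted p = 0.0448). No fold is given against a side at 0. Sele met the filter on low values only through the highest 4, and the side at 0 has no spread. Its adjusted p is therefore not support beyond the values themselves. Endothelial markers overlapped between the sides: their sum was 610 to 2412 in the highest 4 and 713 to 2144 in the lowest 4, and the tumour with the highest Sele, UPPL1694, had a sum of 1085.

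Tmem45a, a transmembrane protein of keratinising epithelia, was at 5900, 3670, 6768 and 5558 in the lowest 4 and at 4160 in the middle tumour. It was at 1396, 1402, 1689 and 956 in the highest 4, so the middle tumour was with the lowest. The log2 difference was -2.0 (SE 0.266, limma adjusted p = 0.0448).

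**Figure D2:**
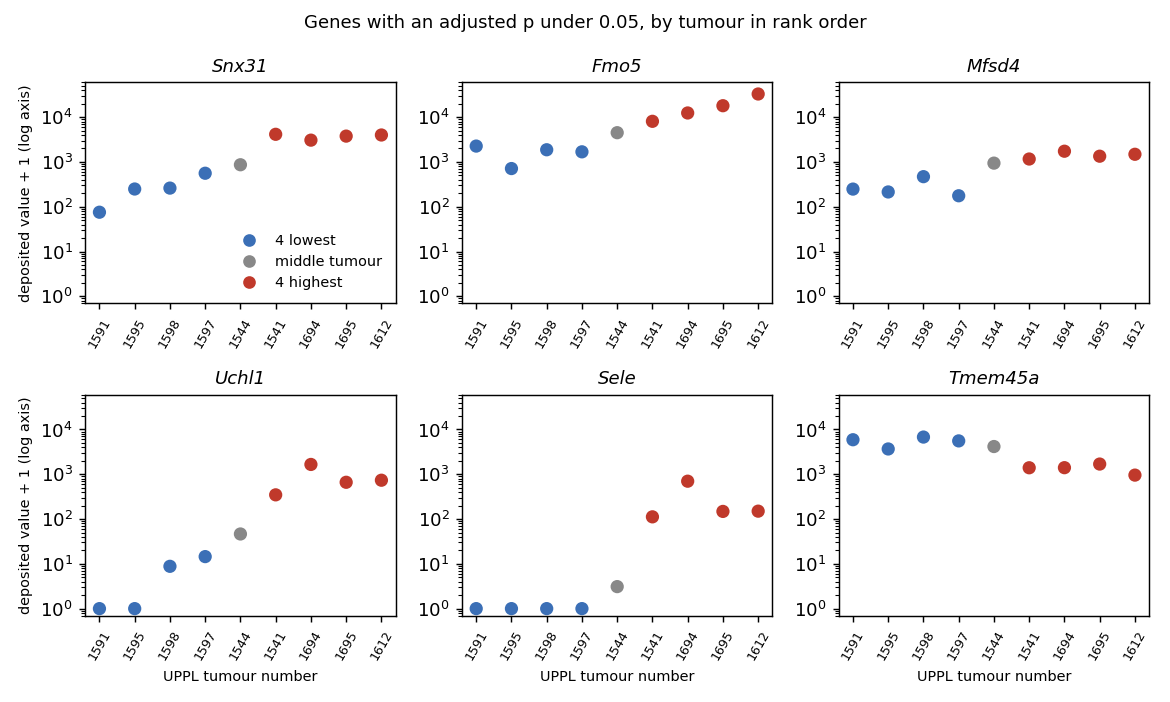
Values of the 6 genes with an adjusted p under 0.05: each panel is a gene, the y axis is the deposited value + 1 on a log axis, and tumours are in rank order by uroplakin mean (blue, 4 lowest; grey, middle; red, 4 highest). Snx31 is at 3070 to 4146 in the highest 4 and at 74.5 to 559 in the lowest 4, and Tmem45a shows the opposite order.

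These calls sit close to the threshold. Over 22 alternatives each of the 6 genes was called in 7 to 9. The highest adjusted p was 0.659 for Snx31 and Fmo5, 0.708 for Tmem45a, 0.976 for Uchl1 and Sele and 0.993 for Mfsd4, and the lowest ranged from 2.37e-04 for Snx31 to 0.0285 for Fmo5. No gene was called by edgeR on the recovered reads, where 867 had an unadjusted p under 0.05, nor without UPPL1694 and UPPL1612, the 2 tumours that stood apart (548 at an unadjusted p under 0.05), nor without the 3 tumours with Xist (499).

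Counting genes whose 4 and 4 values do not overlap gave a wider view with no test. In 504 genes all 4 uroplakin-high tumours lay above all 4 uroplakin-low tumours (4.04 percent of those tested), and in 133 they all lay below (1.07 percent). Among the 504, the middle tumour lay between the sides in 102, within or beyond the values of the highest 4 in 138 and of the lowest 4 in 264. UPPL1694 was the highest tumour in 267 of the 504 and UPPL1595 the lowest in 224, more than any other tumour of their side, and UPPL1595 was at 0 in 83. Among the 133 lower genes, UPPL1694 was the lowest in 64.

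After the called genes, the 7 genes with the largest differences without overlap and a mean of at least 100 did not pass the test. Adh1, an alcohol dehydrogenase that also oxidises retinol, was at 140, 0, 124 and 68.5 in the lowest 4, at 296 in the middle tumour and at 1112, 3278, 2364 and 3868 in the highest 4 (log2 difference 6.18, SE 1.35, limma adjusted p = 0.228). Without UPPL1595, the tumour listed at 0, the difference was 4.49. St8sia6, a sialyltransferase, was at 0 to 26.1 in the lowest 4 and at 70.6 to 714 in the highest 4 (limma adjusted p = 0.106). Fut9, a fucosyltransferase, was at 0 to 13.9 against 91.8 to 1159, the last value from UPPL1694. Plce1, a phospholipase C, was at 0 to 74.8 against 523 to 1783, with the middle tumour at 335. Itm2a, Adssl1 and Cntnap2 completed the 12 genes named as higher, with log2 differences of 6.46, 6.20 and 6.13 and adjusted p-values from 0.144 to 0.164. Of these 12 genes, 9 were listed at 0 in UPPL1595, 8 were highest in UPPL1694, 9 had UPPL1541 as the lowest of the highest 4, and in 10 the middle tumour lay between the sides.

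The 11 named lower genes without overlap, beside Tmem45a, did not pass the test. Thbd, thrombomodulin, was at 191 to 830 in the lowest 4 and at 12 to 120 in the highest 4 (log2 difference -3.48, SE 0.777, limma adjusted p = 0.239). F3, tissue factor, was at 4262 to 9361 in the lowest 4, at 7773 in the middle tumour and at 709 to 2652 in the highest 4 (log2 difference -1.69, SE 0.423, limma adjusted p = 0.311). C3, the complement component, was at 1894 to 2503 against 1486 to 1620 in 3 of the highest 4 and 86.9 in UPPL1694, and its difference of -1.55 became -0.52 without UPPL1694. The rest were Rps4y2 (a copy of a ribosomal protein gene, whose reads could be shared with its near-identical relatives), Pter, Samd12, the protease gene Tmprss4, Gstm6, Fads3, Niacr1 and Cbr2, at log2 differences from -3.30 to -1.47, with adjusted p-values from 0.301 to 0.632. Leaving out UPPL1694 moved Pter from -2.67 to -1.54, Samd12 from -2.49 to -1.11, Tmprss4 from -2.23 to -1.31, Fads3 from -1.73 to -0.95 and Cbr2 from -1.47 to -0.79. Of these 12 genes with Tmem45a, 8 were lowest in UPPL1694, and in 10 the middle tumour lay with the uroplakin-low tumours.

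Other genes of the umbrella cell were described from a fixed list of 12, of which 10 were tested. Snx31 was called higher (0.0401 percent of all genes were), 0 were called lower and 9 did not pass. Among the 10, 3 lay higher in all 4 uroplakin-high tumours (4.04 percent of all genes did), and the median log2 difference was 0.64 against 0.14 over all genes tested. Upk3b, a uroplakin not used in the ranking, was at 453, 1554, 1756 and 1931 in the lowest 4, at 2762 in the middle tumour, and at 3940, 4372, 3559 and 2875 in the highest 4 (log2 difference 1.55, SE 0.424, limma adjusted p = 0.354). Krt8, a keratin of luminal epithelium, was at 3716 to 7691 in the lowest 4, at 10715 in the middle tumour and at 10941 to 26205 in the highest 4 (1.54, SE 0.335, limma adjusted p = 0.228). Krt18, its partner, was at 4161 to 11339 against 10892 to 23745, so UPPL1597 and UPPL1695 overlapped. Krt20, a keratin of the umbrella cell itself, overlapped between the sides: it was at 44.2 to 2293 in the lowest 4 and 285 to 1063 in the highest 4 (0.16, SE 1.04, limma adjusted p = 0.978).

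Among 17 urothelial transcription factors tested, none was called and 3 lay higher in all 4 uroplakin-high tumours, where 4.04 percent of all genes did. Of the 17, 12 had a positive and 5 a negative difference. Their median was 0.42 against 0.14 over all genes, and 0.18 to 0.50 with each tumour left out in turn. Pparg, the nuclear receptor PPAR gamma, was at 1167 to 1988 in the lowest 4 and at 2076 to 3218 in the highest 4 (log2 difference 0.80, SE 0.247, limma adjusted p = 0.425). Gata3 was at 1020 to 1661 against 1818 to 3893 (0.94, SE 0.290, limma adjusted p = 0.425), and Foxa1 at 1389 to 2673 against 2901 to 4580 (0.93, SE 0.263, limma adjusted p = 0.363). Elf3 and Grhl3 overlapped between the sides, at differences of 0.51 and 0.60. Of 13 genes known as PPAR targets none was called and the median was 0.21, which turned to -0.22 without UPPL1595 and was 0.01 without UPPL1612. Angptl4, which is induced by PPAR and by hypoxia, was lower in all 4 (114 to 175 against 262 to 568; -1.43, limma adjusted p = 0.335). Fabp4, a fatty acid binding protein, was at 7739 to 32420 in the lowest 4 and 6852 to 27231 in the highest 4 (-0.53, limma adjusted p = 0.815). The adipocyte markers Plin1, Lep and Retn were at 0 in all 8.

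Channels, transporters and tight junction genes make up the barrier that umbrella cells form. Of 16 tested none was called, 15 had a positive difference and the median was 0.64. Ocln, occludin, was at 819 ± 168 in the lowest 4 and 1342 ± 134 in the highest 4 (mean ± SD) without overlap, and Tjp3 at 724 to 1266 against 1435 to 1825. Fut2, a fucosyltransferase of secreted mucins, was at 0 to 87.1 against 120 to 606, while Agr2, a folding factor for mucins, was at 14.7 to 26.1 against 0 to 10.6. Stra6, the retinol uptake receptor, was at 81.0 to 959 against 980 to 2532. It was the 1 gene without overlap among 12 retinoid genes tested, where 4.04 percent of all genes lay higher in all 4 uroplakin-high tumours. None of the 12 was called and 8 had a negative difference, with a median of -0.64 that was -0.20 without UPPL1694. Further members of the lists with no overlap were Erbb3, Txnrd1, Cyp1a1, H2-T23, Lcn2 and Marveld2, all higher in the uroplakin-high 4, and the macrophage scavenger receptor Msr1, which was lower. None of these passed the test, and over all genes 4.04 percent lay higher in all 4 and 1.07 percent lay lower. Mki67, a marker of dividing cells, overlapped between the sides, at 2878 to 4423 in the lowest 4 and 2704 to 5106 in the highest 4.

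Basal and squamous genes overlapped between the sides. Of 22 basal genes tested none was called, and 21 had a negative difference with a median of -0.60, which was -0.23 without UPPL1694. Krt5 was at 324717, 181023, 89254 and 178721 in the lowest 4 and at 136487, 10615, 77502 and 148199 in the highest 4 (log2 difference -1.45, SE 0.847, limma adjusted p = 0.693), so uroplakin-high tumours other than UPPL1694 had Krt5 within or close to the range of the uroplakin-low ones. Krt14 was at 31196 to 236631 against 2249 to 120901. Sox2, a stem cell factor, was at 777, 1214, 891 and 72.1 in the lowest 4 and at 15.6, 13.0, 106 and 77.1 in the highest 4, where UPPL1597 overlapped (-3.74, SE 0.982, limma adjusted p = 0.325). Of 27 squamous genes none was called, and 25 had a negative difference with a median of -1.47, which became 0.13 without UPPL1694. Krt13 was at 6306 to 66946 in the lowest 4 and at 4453, 145, 31789 and 52086 in UPPL1541, UPPL1694, UPPL1695 and UPPL1612.

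**Figure D3:**
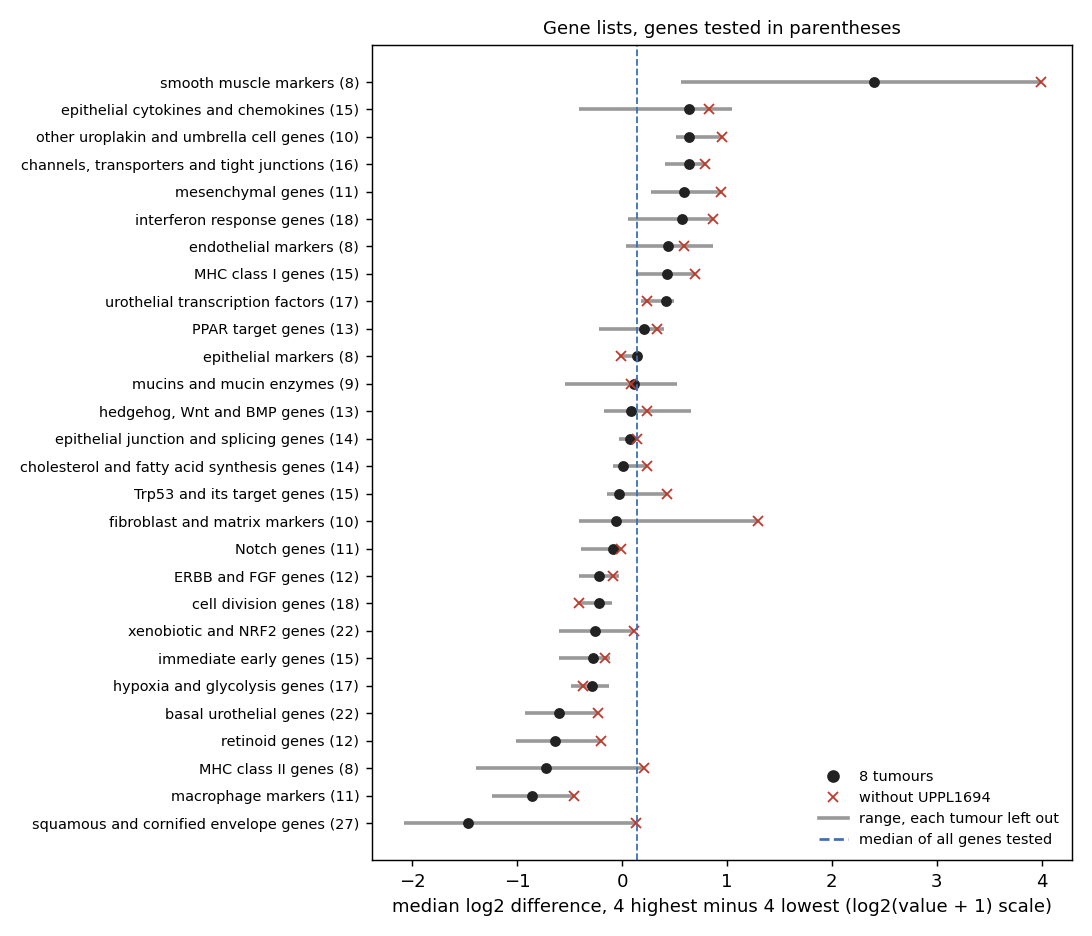
Median log2 difference of each list with at least 8 genes tested, 4 highest minus 4 lowest tumours: dots use all 8 tumours, crosses leave out UPPL1694, grey lines span the values with each tumour left out, and the dashed line is the median over all genes, 0.14. The squamous list moves from -1.47 to 0.13 without UPPL1694, and the umbrella cell list stays between 0.51 and 0.95.

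Summed levels of markers of other cell types overlapped between the sides, and no marker was called. These are bulk tumours, in which fewer cells of a type and less RNA per cell cannot be told apart. Smooth muscle markers summed to 1219 to 3487 in the lowest 4 and to 1615, 1020, 6680 and 52239 in UPPL1541, UPPL1694, UPPL1695 and UPPL1612. All 8 tested had a positive difference, with a median of 2.40 that was 0.56 without UPPL1612. Macrophage markers summed to 1961 to 2840 in the lowest 4 and 782 to 2646 in the highest 4, and 10 of 11 had a negative difference. Their median was -0.86, and -0.46 without UPPL1694. C1qa was among the 10, at 289 to 406 against 40 to 307. UPPL1694 held the lowest value both of the sum and of C1qa. T cell and cytotoxic markers summed to 93.6 or less and B cell markers to 16.3 or less in all 8, with Prf1, Nkg7, Klrd1, Ms4a1 and Pax5 at 0. The part of these cells in the differences above was not tested.

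**Figure D4:**
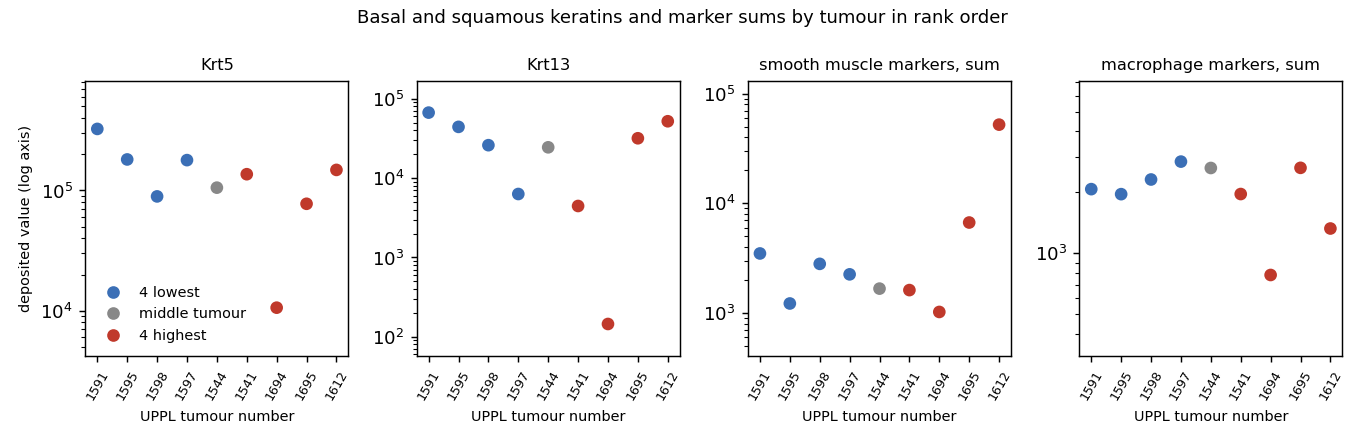
Krt5, Krt13 and the summed levels of smooth muscle and macrophage markers in each UPPL tumour: y axes are deposited values on log axes and tumours are in rank order. Krt5 falls to 10615 and Krt13 to 145 in UPPL1694, and the smooth muscle sum reaches 52239 in UPPL1612.

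The same relation was tested in the 11 BBN tumours, whose values did not enter the ranking of the UPPL tumours. Genes named below because they passed in BBN tumours, Scamp5 and Tfcp2l1 among them, were chosen on those BBN values. Of 13484 genes tested with limma for a slope on the uroplakin mean, 9 rose (0.0667 percent) and 0 fell (0 percent) at an adjusted p under 0.05, and 802 had an unadjusted p under 0.05. The 9 were Adh1, Fmo5, Scamp5, Tfcp2l1, Tmem56, Ldhb, Tc2n, Vsig2 and Ugt2b34. Of these, 8 were tested in the UPPL tumours and 5 (Adh1, Fmo5, Scamp5, Tfcp2l1 and Tmem56) lay higher in all 4 uroplakin-high tumours, against 4.04 percent of all genes. Without the 2 BBN tumours farthest from the median uroplakin mean, Adh1, Fmo5 and Ugt2b34 still passed, and Scamp5, Tfcp2l1, Tmem56, Ldhb, Tc2n and Vsig2 did not (limma adjusted p from 0.209 to 0.423).

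Adh1 had the smallest adjusted p in BBN tumours. Its value was 3.4 to 48.6 in the 5 BBN tumours with the lowest uroplakin mean and 322 to 1263 in the other 6, with no overlap. The slope was 0.97 per log2 unit of uroplakin mean (SE 0.0968, limma adjusted p = 0.00264). It was 0.90 without the 2 BBN tumours farthest from the median uroplakin mean (adjusted p = 0.0448), and it was called under all 4 alternatives.

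Fmo5 was the gene called in both sets of tumours. In BBN tumours it was at 43.7 to 174 in the 5 with the lowest uroplakin mean, at 550 to 2841 in the next 4 and at 3818 and 6633 in the 2 highest. The slope was 0.75 (SE 0.113, limma adjusted p = 0.0384), against 0.61 over the 9 UPPL tumours (adjusted p = 0.0417), and the slopes differed by -0.14 (SE 0.170, limma adjusted p = 0.936).

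Scamp5, a secretory carrier membrane protein of vesicles, was at 38.2 to 184 in the 7 BBN tumours with the lowest uroplakin mean and at 588 to 1669 in the other 4 (slope 0.56, SE 0.0776, limma adjusted p = 0.0327, and 0.21 without those 2 tumours). In UPPL tumours it was at 165 to 720 in the lowest 4, at 879 in the middle tumour and at 1965, 2054, 2057 and 2130 in the highest 4, with a mean of 2052 ± 67.5 (SD, n = 4; log2 difference 2.49, SE 0.397, limma adjusted p = 0.0909). Tfcp2l1, a transcription factor of the grainyhead family, rose in BBN tumours (slope 0.88, adjusted p = 0.0384, and 0.423 without those 2 tumours), and in UPPL tumours was at 12.2 to 79.0 in the lowest 4 and at 164 to 499 in the highest 4 (2.98, SE 0.657, limma adjusted p = 0.228). Its middle UPPL tumour, at 17.9, lay with the lowest.

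Snx31 was at 0 to 42.8 in the 5 BBN tumours with the lowest uroplakin mean, at 67.2 to 629 in the next 5 and at 1578 in the highest. Its slope of 1.01 (SE 0.213) had a limma adjusted p of 0.164, and of 0.0118 without those 2 tumours. The remaining genes called in UPPL tumours did not pass in BBN tumours: Uchl1 had a slope of 0.46, Sele 0.37, Mfsd4 0.11 and Tmem45a 0.02, with adjusted p-values from 0.898 to 0.997. In the other direction, Ugt2b34, a glucuronosyltransferase of a family with near-identical members, rose in BBN tumours (slope 1.24) and was at 1568 to 12240 in the lowest and 1457 to 10438 in the highest UPPL tumours (log2 difference -0.63, limma adjusted p = 0.836). Its difference in slope between the models had an adjusted p of 0.581 (limma). Vsig2 rose in BBN tumours (slope 1.10, adjusted p of 0.218 without the 2 farthest tumours) and was at 1653 to 2481 in the lowest and 2388 to 3937 in the highest UPPL tumours.

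**Figure D5:**
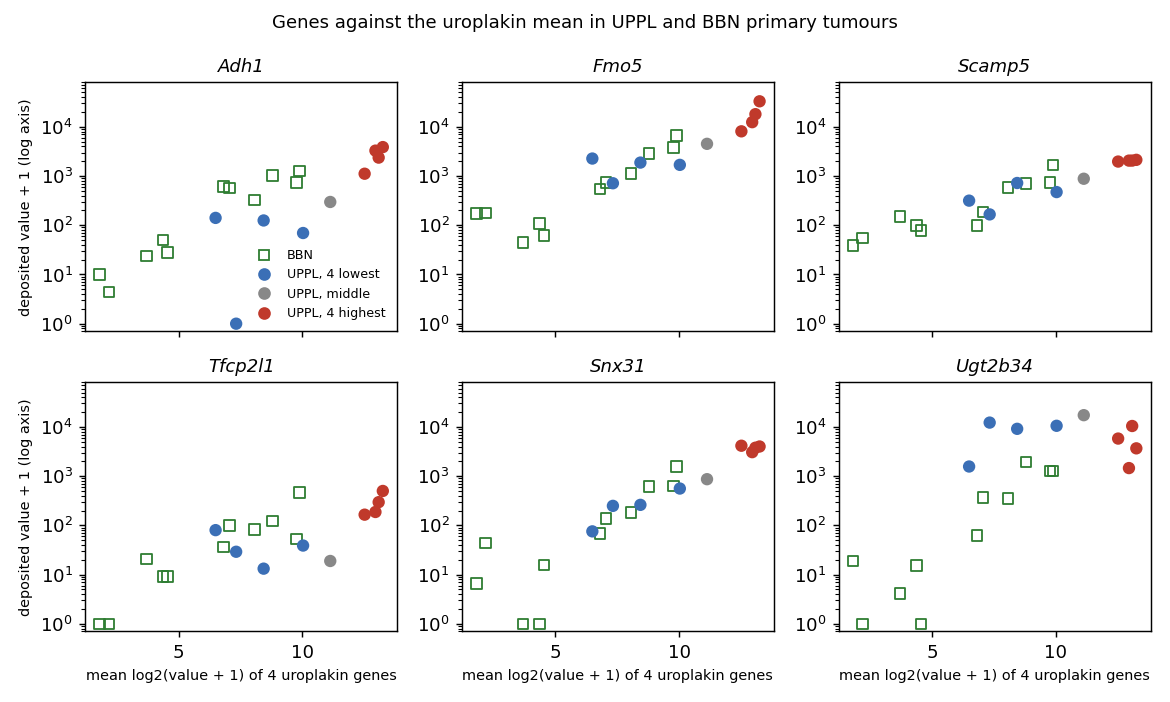
Values of 6 genes against the uroplakin mean in UPPL tumours (filled circles) and BBN tumours (open green squares): the x axis is the mean log2(value + 1) of the 4 ranking genes and the y axis the deposited value + 1 on a log axis. Fmo5, Scamp5 and Snx31 climb in both sets, to 32945, 2130 and 4146 in UPPL tumours, while Ugt2b34 reaches 1919 in BBN tumours and lies at 1457 to 17323 in UPPL tumours.

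The difference in slope between UPPL and BBN tumours was tested for each gene. None of 12814 genes was called (0 percent), and 746 had an unadjusted p under 0.05, so no gene is described as following the uroplakins in one model and not the other. The uroplakin means ran from 1.81 to 9.89 in BBN tumours and from 6.49 to 13.25 in UPPL tumours. A slope that changes with the uroplakin level therefore cannot be told apart from a difference between the models. Across genes, the signs of the slopes in BBN tumours were set beside the UPPL differences as a description, since genes are not independent. Of the 488 genes higher in all 4 uroplakin-high UPPL tumours and tested in both sets, 372 (76.2 percent) had a positive slope in BBN tumours, against 54.4 percent of 12341 genes. Of 132 lower in all 4, 86 (65.2 percent) had a negative slope, against 44.8 percent. By list, all 10 umbrella cell genes and all 18 channel and junction genes tested in BBN tumours had positive slopes, with medians of 0.46 and 0.19 against 0.0088 over all genes. Other lists had positive slopes too: all 19 interferon response genes (median 0.32) and all 9 smooth muscle markers (median 0.15). So did 22 of 23 xenobiotic and NRF2 genes (median 0.14), of which 2 were called, where 0.0667 percent of all genes were called as rising. Adh1, described above, was among those 2. Of the umbrella cell list 1 gene was called, and of the channel and junction, interferon response and smooth muscle lists none. Lists that differed in sign between the sets included the squamous list and the xenobiotic and NRF2 list. Of squamous genes, 27 of 29 had a positive slope in BBN tumours (median 0.30, none called). In UPPL tumours 25 of 27 squamous genes had a negative difference with UPPL1694 included. Of xenobiotic and NRF2 genes, 15 of 22 had a negative difference in UPPL tumours (median -0.26, and 0.11 without UPPL1694).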

How the data were processed

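Per the labels' protocols, a Qiagen RNeasy kit gave the RNA and Illumina's TruSeq Stranded mRNA kit the libraries. The authors deposited signal values for 21705 genes, with the upper quartile of each library's nonzero values set to 1000; the submitters' processing notes name RSEM, Picard 1.64, SAMtools and mm9 but not their roles. Dividing by each library's step gave whole reads for 93.3 to 96.3 percent of values above 0 in UPPL tumours (tolerance 0.02).

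The log2(value + 1) values entered limma 3.58.1 with a variance trend (R 4.3.3). A gene needed a value of 10 or more in at least 4 tumours of a fit (9 of the 20 tumours for the difference in slope). Where UPPL tumours were left out, the number needed fell to the size of the smaller side. Those fits tested 12663 to 13270 genes, so they differ from the main fit in filter as well as in tumours. The 4 ranking genes were left out, and p-values were adjusted by Benjamini-Hochberg over all other genes at a threshold of 0.05. Differences are on the log2(value + 1) scale and understate changes of low genes. The interaction of model and uroplakin mean tested the difference in slope. The members, lists and tests were chosen with earlier results of these data known. The 24 genes named first are the 12 largest differences per direction, called genes first and then genes without overlap, with a mean of at least 100; of the 37 lists (468 of 482 genes found), the first 2 genes and up to 4 with the smallest adjusted p could be named. Scamp5, Tfcp2l1, Tmem56, Ldhb, Tc2n, Vsig2, Ugt2b34, Xist and Ddx3y were named after their values were seen. On simulated data of 12480 genes, 56 percent of log2 changes of 2 and 99 percent of changes of 4 were recovered, and 9 unchanged genes were called. The changes were placed only in genes above a set mean level, with independent normal noise. These shares therefore do not give the power of the real comparison, least of all for low genes. edgeR 4.0.16 was run on recovered reads as an alternative added after seeing the data. Python 3.11.15, numpy 2.4.6, pandas 2.3.3 and matplotlib 3.10.9 were used. Promoters matched for 8 of 9 genes looked up. 3 columns whose names match no sample label were not used. An allele of the genotype is not reported here.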

Additional observations from a re-analysis of the deposited data

Results flagged for a closer look

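Within the 4 uroplakin-high or the 4 uroplakin-low tumours, 12 of the 67 groups tested (the 24 genes named by rule and marker sums) held a value far from the other 3 by Dixon's test on log2(value + 1). Chance flags about 1 in 20 groups, but the 24 genes were chosen on their values in these same tumours. That rate does not apply to groups chosen this way, so the count of 12 is not set against it. Among uroplakin-high tumours, UPPL1694 was the tumour apart for Sele (699 against 111 to 149), Fut9 (1159 against 91.8 to 117), Samd12 (0 against 38.8 to 56.2), Tmprss4 (31.97 against 332 to 475) and C3 (86.9 against 1486 to 1620), and UPPL1541 for St8sia6 (70.6 against 504 to 714). Among uroplakin-low tumours, UPPL1598 was apart for St8sia6 (26.1 against 0) and Fut9 (13.9 against 0), UPPL1591 for Adssl1 (5.64 against 0) and Fads3 (1964 against 1213 to 1265), and UPPL1595 for Adh1 (0 against 68.5 to 140) and Niacr1 (2796 against 1221 to 1361). For the 3 groups whose other values are all 0 (St8sia6, Fut9 and Adssl1), any value above 0 is apart by this measure, so these flags were fixed in advance.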

How the results depend on the processing

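Against 6 genes called, 14 were called with a pseudocount of 10, 13 with array weights, 24 with the uroplakin mean of 9 tumours as covariate (3 of them among the 6), 3 with the middle tumour added to the lowest and 0 with it added to the highest, and 0 with a stricter filter. Alternatives chosen after seeing the data gave 0 with edgeR on recovered reads, 1 without UPPL1595 and UPPL1597, in which the commonest low value was at least 10 reads, 0 without UPPL1694 and UPPL1612 and 0 without the 3 tumours with Xist. Leaving out each tumour in turn gave 0 to 8: 0 without any 1 of the 4 uroplakin-high tumours or UPPL1595, 1 without UPPL1591, 3 without UPPL1597 and 8 without UPPL1598. The median over all genes was 0.14 as deposited, -0.0040 after quantile normalization and 0.053 with median-of-ratios scaling. In BBN tumours the 9 calls became 1 with quantile normalization, 3 without a filter and 5 without the 2 tumours farthest from the median, 3 of these among the 9. Trp53, not called, turned to -0.0817 from 0.74 without UPPL1694 and UPPL1612. The cause of these shifts was not tested. No paired analysis was possible because each primary tumour has its own number. Genes with few reads are less well measured in UPPL1595 and UPPL1597, where the most frequent low value was 17 and 14 reads. Recovered reads numbered 10.6 M and 15.1 M in these tumours.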

Other observations

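The cell line UPPL1541 carries the number of a uroplakin-high primary tumour. Its uroplakin mean was 5.78 in culture and 3.08 to 4.57 in the 4 tumours grown from it, against 12.52 in the primary tumour of that number and 6.49 in the lowest primary tumour.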
